A study of Mus musculus with 6 samples.

Results

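The genes described here are 35 transcription factors of pancreatic islets and β-cells. They were chosen by name, with earlier results of these data known, and were matched by gene symbol. All 35 were found among the 16640 genes with a deposited count. *Ldb1*, a cofactor that binds LIM-homeodomain factors, is counted among them, and the other 34 carry a transcription factor class in the series' own annotation. The cells were MIN6, a mouse β-cell line derived from an insulinoma. RNA-seq compared cells in which the expression of *Thada* had been raised with control cells. The question behind the comparison was which transcripts change in β-cells when *Thada* is activated. The *Thada*-activated line was made by infecting MIN6 cells with a lentivirus for dCas9-VP64 under puromycin selection and then with a lentivirus for the guide RNA and MS2-P65-HSF1 under G418 selection, which brings activators to the promoter of the endogenous gene. The control line received dCas9 and non-targeting guide RNA by lentivirus, so both lines carry dCas9. There were 3 libraries per condition, numbered 1 to 3. The study's reporting summary says of its in vitro work in general that it comprised 3 or more independent experiments, and the sample labels do not say how the libraries relate to these. The p-values measure only the spread between these 6 libraries. The total count was 17272834, 17166511 and 17689611 for control replicates 1, 2 and 3, and it was 17727004, 17385036 and 17224631 for *Thada*-activated replicates 1, 2 and 3. Limits on low counts given here cover counting error only.

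Islet transcription factors act in sequence and in combination. Endoderm factors such as the FOXA and HNF proteins open and maintain the pancreatic programme, a burst of endocrine factors commits progenitors to the islet lineage, and a set of homeodomain, basic helix-loop-helix and large MAF proteins then keeps the insulin gene and the secretory machinery on in mature β-cells. Several of them, among them *Pdx1*, *Neurod1*, *Hnf4a*, *Pax4* and *Rfx6*, are genes of inherited or early-onset diabetes in people.

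Replicate 3 of each condition stood apart from replicates 1 and 2. The first principal component of the tested genes carried 80.1% of the variance between libraries and placed both replicate 3 libraries on one side and the other 4 on the opposite side. Each comparison of the conditions is therefore given also with the replicate number as a block, which compares libraries within a number. In these bulk libraries, fewer cells that express a gene and less RNA of that gene per cell cannot be told apart.

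The line was checked against markers of pancreatic cells. Levels between genes are compared in FPKM, which is scaled by gene length. Of 22 β-cell effector genes, *Ins2*, *Iapp* and *Ins1* had the highest FPKM, and the summed FPKM of the list was 289773, 269061 and 387539 in control replicates 1, 2 and 3 and 283054, 275916 and 310421 in *Thada*-activated replicates 1, 2 and 3. The glucose transporter gene *Slc2a2*, a defining marker of rodent β-cells, had 1, 4 and 1 counts in the control and 3, 3 and 9 counts in the *Thada*-activated libraries. Whether such low counts reflect the cells or the counting on the gene models was not tested. Of 2 acinar genes measured (6 others were not analysed here), both *Amy2a5* and *Ctrb1* were at or under 3 counts in every library. Of the alpha cell list, *Ttr* and *Gcg* had the highest FPKM, while *Pou3f4* had at most 2 counts in any library. Somatostatin (*Sst*) and pancreatic polypeptide (*Ppy*) led the list for delta, PP and epsilon cells, and *Hhex*, *Ghsr* and *Ghrl* were at a mean FPKM under 1. Mesenchymal and immune markers were low, with a summed FPKM from 1.05 to 1.70 over their 3 measured genes (*Pdgfrb* and *Ptprc* were not analysed here).

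The median level of the factors over the 6 libraries was 14.5 FPKM, against 4.47 FPKM for the 1277 genes that the series annotates as transcription factors and 6.50 FPKM for all 16640 genes. By the mean of the 6 libraries, *Pdx1* and *Neurod1* were above 100 FPKM, 18 factors lay between 10 and 100 FPKM, 10 between 1 and 10 FPKM, and 5 were under 1 FPKM. In single libraries, from 1 to 4 factors were above 100 FPKM, and *Pdx1* was under it in both replicate 3 libraries. Over all genes, the shares in these 4 ranges from the highest to the lowest were 4.27%, 36.5%, 28.1% and 31.1%. Over the annotated transcription factors they were 1.02%, 25.8%, 44.9% and 28.3%.

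**Figure D1:**
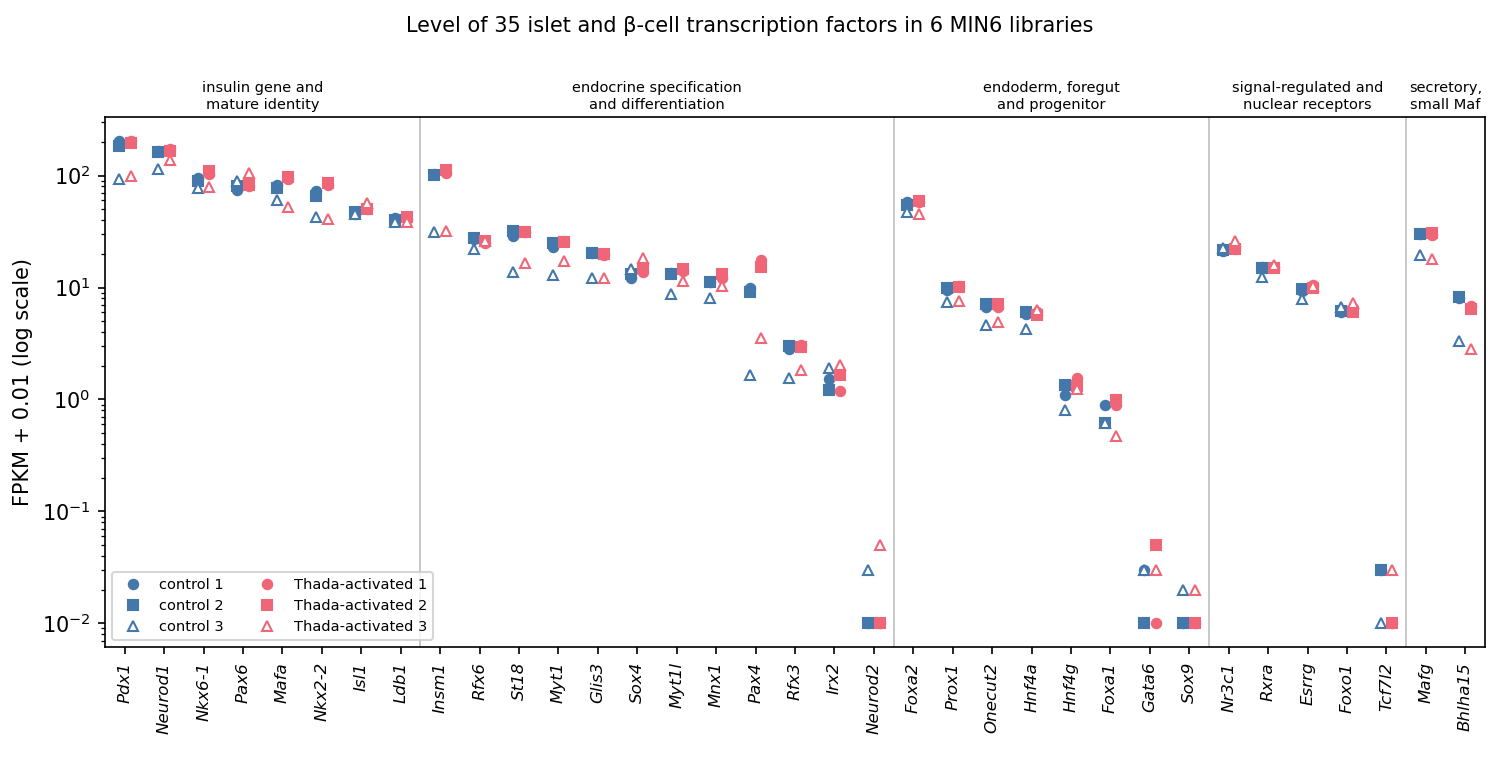
Level of each of the 35 factors in each library as FPKM + 0.01 on a log scale, grouped by role and ordered by mean, with circles, squares and open triangles for replicates 1, 2 and 3, control in blue and *Thada*-activated in red. *Pdx1* and *Neurod1* lie highest, *Neurod2*, *Gata6*, *Sox9* and *Tcf7l2* lie at the bottom, and the triangles of *Insm1* and *Pax4* lie far below their circles and squares.

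The 8 factors that activate the insulin gene or keep mature β-cell identity had a median of 81.4 FPKM, the highest of the 5 roles. *Pdx1*, the homeodomain factor required for the pancreas and for insulin transcription, had 204, 183 and 92.6 FPKM in control replicates 1, 2 and 3 and 203, 197 and 99.1 FPKM in *Thada*-activated replicates 1, 2 and 3. With a mean of 163 FPKM it ranked 7 among the 1277 annotated transcription factors. *Neurod1*, the helix-loop-helix partner of PDX1 on the insulin promoter, followed at rank 8 with a mean of 154 FPKM. The order turned in replicate 3, where *Neurod1* had 116 FPKM in the control and 137 FPKM in the *Thada*-activated library, above *Pdx1* in both, and *Pax6* was above *Pdx1* in the *Thada*-activated one (106 FPKM). *Nkx6-1* (92.5 FPKM), which maintains β-cell identity, *Pax6* (85.7 FPKM), a paired homeodomain factor of all islet endocrine cells, and *Mafa* (77.2 FPKM), the large MAF protein of mature β-cells, came next by mean level. *Nkx2-2* (65.3 FPKM), which represses other islet fates, the LIM-homeodomain gene *Isl1* (49.4 FPKM) and its cofactor gene *Ldb1* (40.3 FPKM) completed the group. The lowest of these 8 means was above that of 87.3% of all genes.

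Factors of endocrine specification and differentiation spanned a wider range. *Insm1*, a zinc finger gene that drives endocrine differentiation, was highest with a mean of 81.4 FPKM. *Rfx6* (25.7 FPKM), which acts downstream of the endocrine commitment step, *St18* (25.7 FPKM) and *Myt1* (21.6 FPKM), both of the MYT1 zinc finger family, and *Glis3* (17.4 FPKM), an activator of the insulin gene, formed a middle tier. *Sox4*, the third MYT1 family gene *Myt1l* and the homeodomain gene *Mnx1* had means of 14.5, 12.5 and 11.0 FPKM. *Pax4*, the paired-box repressor that favours β-cell over alpha cell fate, had a mean of 9.51 FPKM, and the ciliogenesis factor *Rfx3* and the Iroquois gene *Irx2* had means of 2.53 and 1.57 FPKM. In replicate 3, *Pax4* had 1.65 FPKM in the control, below the 1.89 FPKM of *Irx2*, and 3.56 FPKM in the *Thada*-activated library. *Neurod2* was close to undetected.

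Among endoderm, foregut and progenitor factors, the 2 pioneer genes of the forkhead family differed widely in level. *Foxa2* had from 45.2 to 59.7 FPKM and *Foxa1* from 0.46 to 0.97 FPKM, with no overlap between the genes in any library. *Prox1* (9.13 FPKM), *Onecut2* (6.22 FPKM) and *Hnf4a* (5.67 FPKM) were intermediate, and *Hnf4g* had a mean of 1.22 FPKM. Among signal-regulated factors, the glucocorticoid receptor gene *Nr3c1* (22.6 FPKM) and the retinoid X receptor gene *Rxra* (14.8 FPKM) were highest, ahead of *Esrrg* (9.61 FPKM), a nuclear receptor gene of oxidative metabolism, and *Foxo1* (6.44 FPKM), which responds to insulin signalling. The small MAF gene *Mafg* had a mean of 26.2 FPKM and *Bhlha15*, the secretory-cell factor MIST1, 5.94 FPKM.

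For 4 of the 35 factors (11.4%), the counts were at or under 3 in every library, beside 2543 of all 16640 genes (15.3%) and 168 of the 1277 annotated transcription factors (13.2%). This limit is taken as the floor and corresponds to between 0.169 and 0.175 CPM (the count scaled by library size), here from the total counts. Other CPM values use TMM-scaled library sizes. *Tcf7l2*, a WNT effector and the gene of the best known common risk locus for type 2 diabetes, had 1, 1 and 0 counts in control replicates 1, 2 and 3 and 0, 0 and 1 counts in *Thada*-activated replicates 1, 2 and 3. *Sox9*, the factor of pancreatic progenitors and duct cells, had 1 count in replicate 3 of each condition and 0 in the other libraries. *Neurod2* had 1 and 2 counts in the control and *Thada*-activated replicate 3 and 0 in the others, and *Gata6* had from 0 to 2 counts. None of these 4 was tested, and at this depth the counts under the floor were too few to give a level. Low counts can also come from how reads were assigned to the gene models, which was not tested here. The other 31 passed the filter on low counts, and 12516 genes in all were tested.

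The counts of 9 factors are less certain because another gene shares exon sequence. Whether counting used strand is not given in the sources used here. In GENCODE M21, 54.6% of the exon bases of *Sox4* are shared with a long noncoding RNA gene on the opposite strand. An antisense gene covers 9.67% of the exon bases of *Nkx2-2*, and *Neurod1* shares 7.37% of its exon bases with *Cerkl* on the same strand and 5.64% with a noncoding RNA gene on the opposite strand. *Foxo1* shares 7.78% with an antisense gene, and *Myt1l*, *Ldb1*, *Mafg*, *Prox1* and *Gata6* share between 1.43% and 4.52% of their exon bases with another gene. *Pax6* alone had estimated counts that were not whole numbers, in all 6 libraries, as happens when reads are divided between genes or transcripts.

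The targeted gene moved as its label states. *Thada* had 479, 497 and 300 counts in control replicates 1, 2 and 3 and 1018, 977 and 864 counts in *Thada*-activated replicates 1, 2 and 3, so the conditions did not overlap. Its log2 fold change was 1.13 (SE 0.22) with an adjusted p of 1 in the edgeR quasi-likelihood test with Benjamini-Hochberg adjustment. With the replicate block it was 1.15 (SE 0.10), and the adjusted p fell to 0.00041 by edgeR.

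Among the islet factors, *Pax4* was the single one called between the conditions, higher in *Thada*-activated cells, and this call was made with the replicate block. A gene was called at an adjusted p under 0.05 and a fold change over 1.5. Without the block, 0 of the 31 tested factors were called and 0 had an unadjusted p under 0.05, beside 0 of 12516 genes called (0%, 101 with an unadjusted p under 0.05) in the edgeR quasi-likelihood test. The DESeq2 Wald test without the block called 5 genes and 0 of the factors, and limma on log2(FPKM + 1) called 0 genes. With the block, 1 factor was called higher, beside 13 of 12516 genes (0.104%), and 8 factors had an unadjusted p under 0.05, beside 1302 genes (10.4%).

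*Pax4* (gene ID 18506, chromosome 6, 28442334 to 28449340, RefSeq on GRCm38.p6) had 205, 183 and 34 counts in control replicates 1, 2 and 3 and 372, 320 and 74 counts in *Thada*-activated replicates 1, 2 and 3. Scaled by library, these were 12.0, 10.7 and 1.95 CPM in control and 20.9, 18.4 and 4.21 CPM in *Thada*-activated cells. The activated library was the higher one in each of the 3 same-numbered pairs, with log2 differences of 0.78, 0.76 and 0.94, yet both replicate 3 libraries lay below all others and the conditions overlapped. Control cells averaged 8.20 ± 5.46 CPM (SD, n = 3), against 14.5 ± 9.02 CPM (SD, n = 3) in activated cells. The log2 fold change was 0.82 (SE 0.81, adjusted p = 1) without the block and 0.84 (SE 0.11, adjusted p = 0.00929) with the block in the edgeR quasi-likelihood test. The exact permutation test of the 3 libraries against 3, which ignores the pairs, gave a two-sided p of 0.5, where 0.1 is the smallest p this design allows. With single libraries left out and no block, the log2 fold change ranged from 0.36 to 1.26. With pair 1, 2 or 3 left out of the blocked fit, that of *Pax4* was 0.89, 0.89 and 0.80 and it was called each time (adjusted p = 0.0139, 0.042 and 1.26e-08 by edgeR).

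*Bhlha15* went the other way. It had 27.6, 27.3 and 11.1 CPM in control replicates 1, 2 and 3 and 22.7, 21.2 and 9.27 CPM in *Thada*-activated replicates 1, 2 and 3. Each activated library was below the control library of its number, but the conditions overlapped because of replicate 3. Its blocked log2 fold change of -0.31 (SE 0.09) had an adjusted p of 0.248 in the edgeR quasi-likelihood test and did not pass. Without the block it was -0.31 (SE 0.47), and it ranged from -0.63 to -0.0013 with single libraries left out.

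The 8 identity factors had small positive estimates with and without the block, but most of them changed sign in some fit. In the blocked fit without pair 2, *Mafa* (-0.031) and *Ldb1* (-0.030) were negative. With single libraries left out and no block, *Pdx1*, *Neurod1*, *Nkx2-2*, *Mafa*, *Ldb1* and *Pax6* reached negative values, the lowest being -0.22 for *Pdx1*. *Isl1* had 108, 112 and 108 CPM in control replicates 1, 2 and 3 and 118, 120 and 133 CPM in *Thada*-activated replicates 1, 2 and 3. No control library reached any activated one (exact permutation test, two-sided, p = 0.1), and the blocked log2 fold change of 0.17 (SE 0.06) had an adjusted p of 0.368 in the edgeR quasi-likelihood test. *Pdx1* had 233, 205 and 106 CPM in control and 229, 222 and 112 CPM in *Thada*-activated replicates 1, 2 and 3, with a blocked log2 fold change of 0.06 (SE 0.06). *Mafa* had 77.3, 70.4 and 56.7 CPM in control and 85.3, 89.5 and 48.8 CPM in *Thada*-activated replicates 1, 2 and 3. Its pairs 1 and 2 were higher and its pair 3 was lower in the activated library, and its blocked log2 fold change was 0.10 (SE 0.09). *Neurod1*, *Nkx6-1*, *Nkx2-2*, *Pax6* and *Ldb1* had blocked log2 fold changes of 0.10, 0.14, 0.15, 0.12 and 0.01. None of the 8 passed, and 1 (*Isl1*) had an unadjusted p under 0.05 with the block. When pair 3 was left out of the blocked fit, *Nkx2-2* (0.26), *Mafa* (0.24) and *Nkx6-1* (0.20) had adjusted p-values of 0.00471, 0.0188 and 0.0449 in the edgeR quasi-likelihood test, and *Bhlha15* (-0.32) had 0.0296. From replicates 1 and 2 alone without the block, the adjusted p-values of these 4 by edgeR were 0.00168, 0.00979, 0.0169 and 0.0212. None of them reached the fold threshold.

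Of the 11 tested factors of endocrine specification, 5 had an unadjusted p under 0.05 with the block, namely *Pax4*, *Mnx1*, *Myt1*, *Myt1l* and *Sox4*. The blocked log2 fold changes of the last 4 were 0.23, 0.19, 0.17 and 0.20, with adjusted p-values of 0.457, 0.398, 0.462 and 0.339 in the edgeR quasi-likelihood test. *Sox4* had 34.7, 36.7 and 41.9 CPM in control replicates 1, 2 and 3 and 38.2, 41.7 and 50.9 CPM in *Thada*-activated replicates 1, 2 and 3, higher in each pair. *Insm1*, *Rfx3*, *Rfx6*, *Glis3*, *St18* and *Irx2* had blocked log2 fold changes from -0.08 to 0.10.

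The 6 tested endoderm and progenitor factors had blocked estimates from 0.01 for *Foxa2* to 0.33 for *Hnf4g*, with 0 at an unadjusted p under 0.05 in the edgeR quasi-likelihood test. In the blocked fit, *Foxa1* (-0.18) and *Foxa2* (-0.051) were negative without pair 2, and *Hnf4a* (-0.030) was negative without pair 3. *Hnf4a* had 24.4, 24.9 and 18.0 CPM in control and 24.8, 23.4 and 25.8 CPM in *Thada*-activated replicates 1, 2 and 3, so that its difference lay in pair 3. Of the signal-regulated factors, *Esrrg* had 48.3, 49.8 and 41.3 CPM in control and 53.9, 51.1 and 53.0 CPM in *Thada*-activated replicates 1, 2 and 3. No control library reached an activated one (exact permutation test, two-sided, p = 0.1), and its blocked log2 fold change of 0.18 (SE 0.08) had an adjusted p of 0.427 in edgeR. The conditions were separate for *Isl1* and *Esrrg*, 2 of 31 tested factors, beside 676 of 12516 genes (5.4%).

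Over all 31 tested factors, 27 had a blocked log2 fold change above 0 and 4 below 0, with a median of 0.10, against 6216 above and 6300 below and a median of 0.00 over all tested genes. The median of the factors was 0.13, 0.089 and 0.065 in the blocked fit without pair 1, 2 and 3, and without the block it ranged from -0.013 without control replicate 3 to 0.19 without control replicate 1. In 13 factors the activated library was the higher one in all 3 pairs, beside 2039 of 12516 genes (16.3%), and in 3 factors it was the lower one in all 3 pairs, beside 2085 genes (16.7%). Among the 993 other annotated transcription factors that were tested, 0 were called higher and 1 lower with the block, and their median was -0.01. The factors were not chosen at random, so these counts describe the list and no test was made of it.

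**Figure D2:**
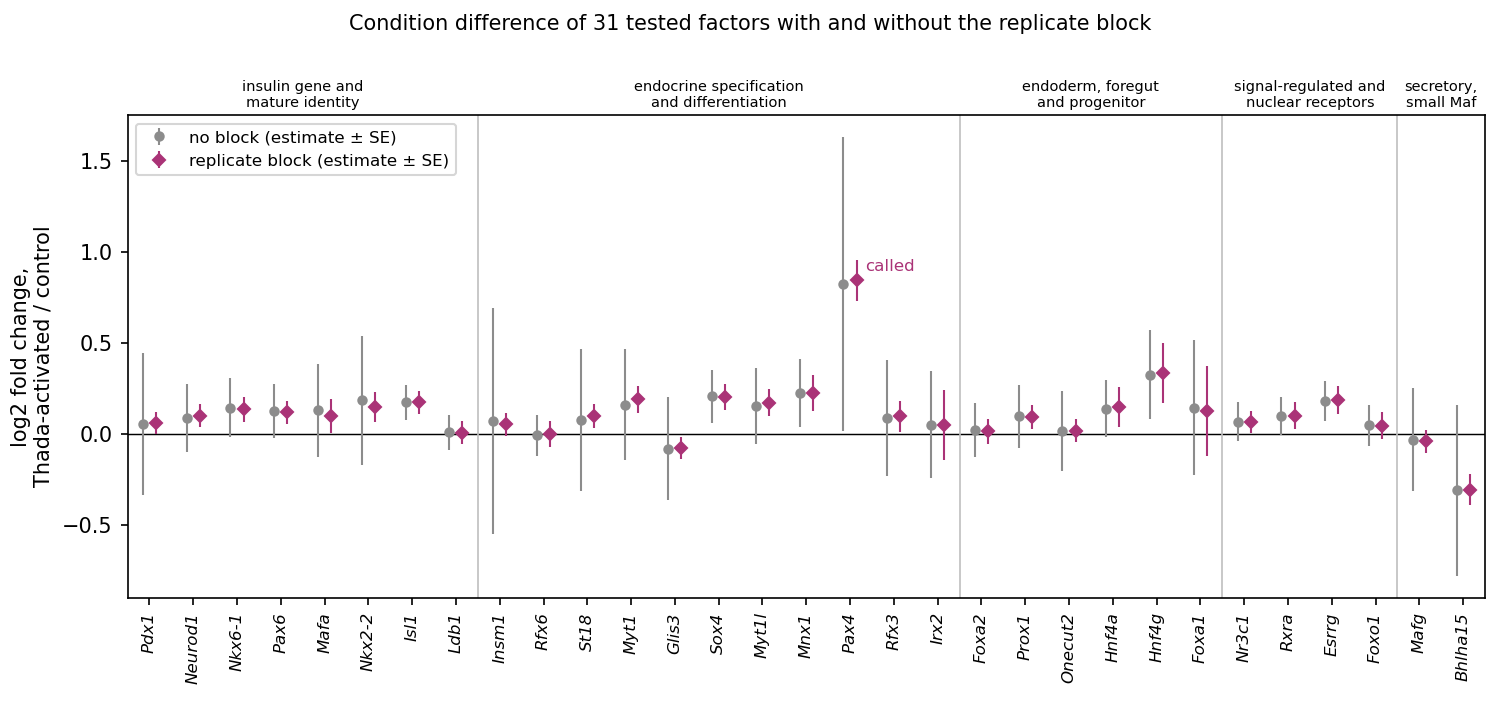
Condition difference of the 31 tested factors as log2 fold change (activated over control), with bars of 1 SE, from edgeR without the block (grey circles) and with it (purple diamonds). *Pax4* is marked as called with the block, at 0.84, and the bars of *Pax4*, *Insm1*, *Pdx1* and *Bhlha15* are much longer without the block.

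Replicate 3 was then set against replicates 1 and 2. It was set apart because earlier results showed it standing apart, so the p-values describe these libraries. The factors too were chosen with earlier results of these data known, so the counts below describe the list and were not tested. In replicate 3, 12 of 31 tested factors were called lower and 0 were called higher, beside 1923 of 12516 genes lower (15.4%) and 1970 higher (15.7%). The lower ones came from every role except the nuclear receptors and signal-regulated factors. They were *Pdx1*, *Mafa* and *Nkx2-2* of the identity factors, *Pax4*, *Insm1*, *Rfx3*, *Glis3*, *St18* and *Myt1* of endocrine specification, *Foxa1*, and both *Bhlha15* and *Mafg*. The median log2 difference was -0.40 over the 31 factors and 0.00 over all tested genes. Of the 993 other annotated transcription factors tested, 127 were called lower and 142 higher, with a median of 0.00.

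*Insm1* (gene ID 53626, chromosome 2, 146221997 to 146225020, RefSeq on GRCm38.p6) had the lowest adjusted p of the 31 factors. It had 301, 291 and 91.2 CPM in control replicates 1, 2 and 3 and 303, 324 and 90.8 CPM in *Thada*-activated replicates 1, 2 and 3. Both replicate 3 libraries were at nearly the same level, and the 4 others were 3.35-fold higher on average. The log2 difference was -1.74 (SE 0.06, adjusted p = 4.78e-11 by the edgeR quasi-likelihood test). *Pax4*, with the CPM given above, had the largest difference of the list at -2.34 (SE 0.14, adjusted p = 5.42e-09 in the same test), and replicates 1 and 2 averaged 5.03-fold the level of replicate 3. *Bhlha15* was next at -1.27 (SE 0.09, adjusted p = 2.32e-08 in the same test), lower in both replicate 3 libraries than in any other.

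*Pdx1* (gene ID 18609, chromosome 5, 147270097 to 147275848) averaged 222 ± 12.4 CPM in replicates 1 and 2 (SD, n = 4) and 109 CPM in the replicate 3 libraries, a log2 difference of -1.03 (SE 0.06, adjusted p = 6.34e-09 by edgeR). *St18* was close to it, at 172 ± 6.93 CPM (SD, n = 4) against 83.9 CPM, a log2 difference of -1.04 (SE 0.06). *Nkx2-2* had 151, 134 and 85.5 CPM in control and 166, 175 and 80.1 CPM in *Thada*-activated replicates 1, 2 and 3, and its log2 difference was -0.91 (SE 0.08). All 3 were lower in both replicate 3 libraries than in any other library. *Rfx3* (-0.82), *Myt1* (-0.77), *Glis3* (-0.72) and *Mafg* (-0.72) followed, each with both replicate 3 libraries below the other 4.

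*Mafa* and *Foxa1* were called at the edge of the rule. The log2 difference of *Mafa* was -0.61 (SE 0.09, adjusted p = 7.02e-05 by the edgeR quasi-likelihood test), and it fell short of the 1.5-fold threshold without *Thada*-activated replicate 3 (-0.38) or replicate 2 (-0.57) and when library sizes left out the 20 genes with the most counts (-0.57). *Foxa1* had 46, 31 and 32 counts in control and 48, 51 and 24 counts in *Thada*-activated replicates 1, 2 and 3. Its replicate 3 libraries did not lie below all others. Its call (-0.66, SE 0.26, adjusted p = 0.0353 by edgeR) was lost by the DESeq2 Wald test (-0.65, adjusted p = 0.108). The call was also lost without control replicate 1 or *Thada*-activated replicate 1 or 2 (adjusted p from 0.0649 to 0.0933 by edgeR). The log2 differences there were -0.59, -0.65 and -0.59. Without *Thada*-activated replicate 3 the log2 difference was -0.29, and with single libraries left out it ranged from -1.04 to -0.29.

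A second set of factors differed by less than the fold threshold. With an adjusted p under 0.05 and no fold threshold, 20 factors were lower, beside 4302 genes (34.4%), and 5 were higher, beside 4290 genes (34.3%). The lower ones added *Neurod1* (-0.41), *Nkx6-1* (-0.33), *Onecut2* (-0.54), *Myt1l* (-0.47), *Prox1* (-0.40), *Hnf4g* (-0.40), *Mnx1* (-0.38) and *Foxa2* (-0.31). The higher ones were *Irx2* (0.49), *Sox4* (0.29), *Pax6* (0.28), *Foxo1* (0.17) and *Nr3c1* (0.15). With each library left out in turn, *Foxo1* was not under 0.05 in any of 6 fits (adjusted p from 0.0609 to 0.165 by edgeR). *Nr3c1* was not under 0.05 without control replicate 1 or *Thada*-activated replicate 1 or 2 (adjusted p from 0.0583 to 0.122 by edgeR). *Irx2* was not without control replicate 2 or *Thada*-activated replicate 1 (0.0816 and 0.0919), nor was *Hnf4g* without control replicate 1 or 2 or *Thada*-activated replicate 1 (0.0501 to 0.117). With single libraries left out, the log2 differences ranged over *Nr3c1* 0.089 to 0.22, *Irx2* 0.39 to 0.59 and *Hnf4g* -0.57 to -0.25. By the DESeq2 Wald test, *Hnf4g*, *Irx2* and *Foxo1* had adjusted p-values of 0.142, 0.088 and 0.122. *Hnf4g* was also not under 0.05 with DESeq2 size factors, by limma or with library sizes without the top 20 genes (0.0501, 0.0625 and 0.0771), nor was *Foxo1* by limma or without the filter (0.0795 and 0.0763). *Pax6*, for example, had 271, 285 and 320 CPM in control and 290, 293 and 372 CPM in *Thada*-activated replicates 1, 2 and 3, where *Pdx1* had less in replicate 3 than in any other library. *Isl1*, *Ldb1*, *Rfx6*, *Hnf4a*, *Rxra* and *Esrrg* had log2 differences from -0.16 to 0.07 in the edgeR quasi-likelihood test. Without the filter on low counts, *Rfx6* (-0.16) had an adjusted p of 0.0461 in that test. With the filter, none of these genes had an adjusted p under 0.05. Each of these except *Ldb1* was under 0.05 in 1 of the 6 fits that left out a library, which for *Isl1* was without control replicate 3 and for the others without *Thada*-activated replicate 3.

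Replicate 2 against replicate 1 gave no such pattern. The edgeR quasi-likelihood test called 0 of 12516 genes (0%) and 0 factors, with 130 genes and 0 factors at an unadjusted p under 0.05, and the log2 differences of the factors lay between -0.19 and 0.10.

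**Figure D3:**
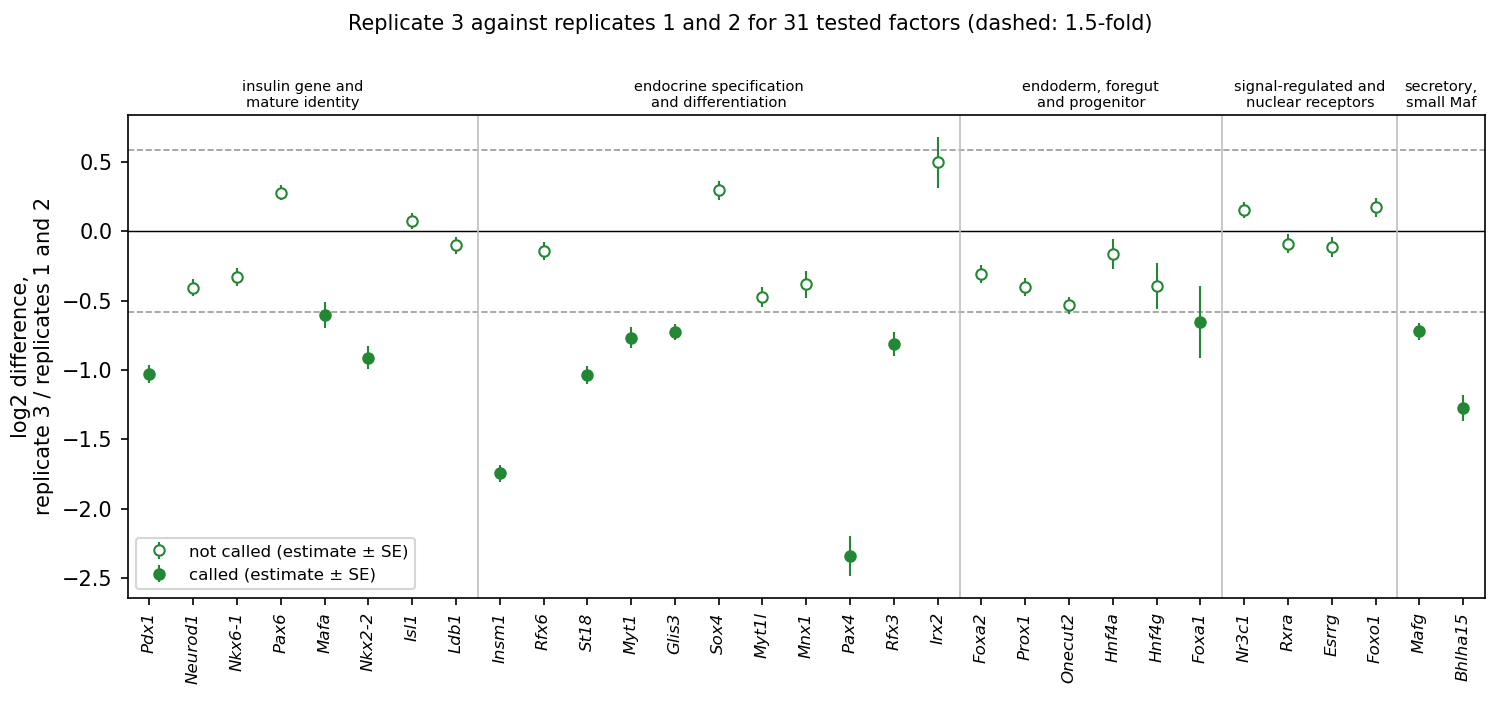
Log2 difference of replicate 3 from replicates 1 and 2 for the 31 tested factors, with bars of 1 SE from edgeR, filled points for the 12 called factors and dashed lines at a fold change of 1.5. *Pax4* (-2.34) and *Insm1* (-1.74) lie lowest, and *Irx2* (0.49) is the highest point.

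Other genes moved with replicate 3, and their part in the difference of the factors was not tested. *Ins2* took 6.37%, 5.65% and 10.2% of all counts in control replicates 1, 2 and 3 and 6.44%, 6.29% and 8.36% in *Thada*-activated replicates 1, 2 and 3. Of 21 tested β-cell effector genes, 1 was called higher in replicate 3 and 7 lower, beside 15.7% and 15.4% of all tested genes. *Ins1* was higher (0.82), while the lower ones were the potassium channel genes *Abcc8* (-2.14) and *Kcnj11* (-1.44), *Ucn3* (-1.24), *Slc30a8* (-0.96), *Nnat* (-0.89), *Pcsk1* (-0.81) and *Gipr* (-0.67). The summed FPKM of the 35 factors was 1210, 1175 and 829 in control replicates 1, 2 and 3 and 1271, 1285 and 908 in *Thada*-activated replicates 1, 2 and 3. That of the effector list was highest in replicate 3 of each condition because of *Ins2* alone. Without *Ins2*, the other 21 effector genes summed to 88894, 84920 and 61313 FPKM in control and to 80148, 78808 and 67794 FPKM in *Thada*-activated replicates 1, 2 and 3, lowest in replicate 3.

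Markers of other cells moved too, where 15.7% of all tested genes were called higher in replicate 3 and 15.4% lower. In replicate 3, *Sst* (-1.14) was called lower and *Ppy* (0.70) and *Rbp4* (0.64) higher among 3 tested genes of delta, PP and epsilon cells, and *Ttr* (-0.80) was lower among 3 tested alpha cell genes. The summed FPKM of the delta, PP and epsilon list was 416, 364 and 252 in control and 403, 370 and 253 in *Thada*-activated replicates 1, 2 and 3, and that of the alpha cell list was 1231, 1148 and 625 in control and 1212, 1202 and 757 in *Thada*-activated replicates. Of 4 tested duct genes, *Krt7* (-0.99) and *Krt19* (-0.83) were called lower, with a summed FPKM of the list of 115, 120 and 60.1 in control and 140, 140 and 77.0 in *Thada*-activated replicates 1, 2 and 3. Of 3 mesenchymal and immune genes, *Col1a1* (1.28) was called higher and *Cd68* lower, both at 61 counts or fewer in any library. The defining factors *Hhex* of delta cells and *Pou3f4* of alpha cells were at the floor in every library.

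Between the conditions, 0 of these marker genes were called with the replicate block, where *Pax4* was called, but several had low p-values. *Krt19* had 9, 9 and 6 counts in control and 42, 26 and 18 counts in *Thada*-activated replicates 1, 2 and 3, without overlap. Its blocked log2 fold change was 1.78 (SE 0.32, adjusted p = 0.0548 by the edgeR quasi-likelihood test). That of *Krt7* was 0.32 (SE 0.06, adjusted p = 0.0651 by edgeR). *Ppy* and *Rbp4* had blocked log2 fold changes of 0.33 and 0.45 with adjusted p-values of 0.213 and 0.285 by edgeR. Of the effector genes, *Ucn3* had a blocked log2 fold change of 0.52 (SE 0.09, adjusted p = 0.0337 by edgeR), under the fold threshold. Whether these differences bear on that of *Pax4* was not tested.

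A list of 24 further islet transcription factors was examined in the same fits, of which 20 were measured and 15 tested. *Neurog3*, *Ptf1a*, *Onecut1* and *Lmx1b* were not analysed here. The carbohydrate-responsive factor gene *Mlxipl*, the ETS gene *Etv1* and the zinc finger gene *Tshz1* had the highest FPKM. Between the conditions, 0 of the 15 were called with or without the block (2 and 0 at an unadjusted p under 0.05 in edgeR, respectively). In replicate 3, *Etv1* (-1.69), *Mlxipl* (-1.40) and *Bach2* (-0.61) were called lower and the Notch target *Hes1* (1.43) higher, and the median of the 15 was 0.20. Over all tested genes, 15.4% were called lower there and 15.7% higher. *Hes1*, a repressor of endocrine commitment, had 150, 148 and 451 counts in control and 171, 191 and 444 counts in *Thada*-activated replicates 1, 2 and 3. The small MAF genes *Maff* and *Mafk* were not called in either comparison.

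Promoter sequence was read for the factors called lower in replicate 3, *Foxa1* with its uncertain call included. The RefSeq table of promoters (GRCm38.p6) held 26 of the 35 factors and 8 of the 12 lower ones. *Pax4*, *Insm1*, *St18* and *Mafa* were absent from it. The 250 bases before the start given in the table were searched on both strands for the E-box CANNTG, which basic helix-loop-helix factors such as NEUROD1 and MIST1 recognise, and for the homeodomain core TAAT. An E-box was found in 6 of the 8 lower factors, in 11 of the 16 other tested factors, and in 66.0% of 27025 promoters, 1 for each gene of the table. TAAT was found in 3 of the 8, in 10 of the 16 and in 55.3% of all promoters. The forkhead letters TGTTTAC were found for *Foxa1* alone of the 26 factors (3.09% of all promoters), and the partial Maf site TGCTGA was found for *Neurod1* and *Nkx6-1* (15.8% of all promoters). A match says only that the letters are present. Some genes have several starts in the table, and the first one listed was used, which need not be the start used in these cells. For *Nkx2-2*, *Rfx3*, *Foxa1* and *Mafg*, the whole window lies inside the annotated span of the gene, and for *Glis3* part of it does.

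The 3 windows below belong to the lower factors with the largest differences among those in the table. They are *Bhlha15* (chr5:144190036-144190285, plus strand), *Pdx1* (chr5:147269847-147270096, plus strand) and *Nkx2-2* (chr2:147186403-147186652, minus strand), each 250 bases long and written 5′ to 3′ with E-boxes in capitals. Each holds 3 E-boxes, and CACGTG, a form that reads the same on both strands, occurs in those of *Pdx1* and *Nkx2-2*. This number does not mark the lower factors. The windows of *Myt1l*, which was not among the called factors, and *Neurod2*, at the floor, also held 3. Those of *Rfx3* and *Myt1*, both called lower, held 0. In the *Pdx1* window, CAAGTG is followed directly by CAGGTG.
Bhlha15: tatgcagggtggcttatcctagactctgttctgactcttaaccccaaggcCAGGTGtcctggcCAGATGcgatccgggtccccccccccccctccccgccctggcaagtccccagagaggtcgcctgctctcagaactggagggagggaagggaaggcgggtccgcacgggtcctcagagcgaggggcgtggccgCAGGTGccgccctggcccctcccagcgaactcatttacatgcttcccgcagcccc
Pdx1: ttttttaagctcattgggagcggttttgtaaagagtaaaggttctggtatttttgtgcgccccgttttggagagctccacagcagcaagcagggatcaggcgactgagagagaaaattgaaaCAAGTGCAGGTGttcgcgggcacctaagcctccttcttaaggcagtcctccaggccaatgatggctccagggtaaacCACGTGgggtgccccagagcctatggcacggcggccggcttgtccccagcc
Nkx2-2: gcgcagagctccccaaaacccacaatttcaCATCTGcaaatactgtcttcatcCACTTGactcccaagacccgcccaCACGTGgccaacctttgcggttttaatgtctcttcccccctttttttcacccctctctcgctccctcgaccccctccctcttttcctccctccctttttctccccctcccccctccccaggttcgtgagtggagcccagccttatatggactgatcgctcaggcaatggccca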

How the data were processed

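The authors deposited an estimated count per gene and library, which need not be whole, and FPKM values, which scale reads by gene length and library size. The submitters' processing notes name Bowtie2, RSEM, DESeq2 and GRCm38, without versions. The table's fold changes, p-values and q-values hold the authors' own comparison and were not used, nor were TPM values. The members and gene lists were chosen with earlier results of these data known.

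Counts were rounded and analysed in R 4.3.3 with edgeR 4.0.16 (quasi-likelihood test with robust fitting, filterByExpr, TMM, Benjamini-Hochberg adjustment over all tested genes). The fits were tested on simulated counts. A pass was required only where no replicate differences were added, with a coefficient of variation between libraries near that of the blocked fit (0.063). That of the unblocked condition fit was 0.253, so this check does not cover its spread. CPM values use TMM-scaled library sizes. Single genes were compared by an exact permutation test on log2(CPM + 0.5) (scipy). Alternatives used DESeq2 1.42.0, limma 3.58.1 on log2(FPKM + 1) and log2(FPKM + 0.1), other filters and library sizes, and left out each library. The replicate block pairs libraries by the labels' numbers. Same-numbered libraries deviated together from their condition means across genes (correlations 0.667, 0.671 and 0.869). Deviations from a condition mean offset each other, and replicate 3 stood apart in both conditions. Replicates 1 and 2 therefore deviate against replicate 3 by construction, and the correlations cannot decide how replicates 1 and 2 pair. Crossing replicates 1 and 2 gave 0.705 and 0.726, higher than the labelled pairs of these replicates (0.667 and 0.671). The correlations therefore do not favour the labelled pairing of replicates 1 and 2. Crossing either with replicate 3 gave -0.784 to -0.766. Named genes were all 35 factors, *Thada*, listed genes called in either comparison and the 3 most abundant genes of each list. *Slc2a2*, *Maff*, *Mafk*, *Aldh1a3* and genes at the floor were named after their values were seen. Promoters and coordinates are from RefSeq (GRCm38.p6), and shared exons from GENCODE M21.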

Additional observations from a re-analysis of the deposited data

How the results depend on the processing

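Without the block, 0 genes and 0 factors were called in each of the 6 fits that left out a library. Beside the blocked count of 19 genes, the condition comparison gave 5 genes by the DESeq2 Wald test and 20 by that test with the replicate block. The blocked edgeR fit gave 43, 18 and 70 genes without pair 1, 2 and 3. Alternatives chosen after seeing the data gave 68 genes from replicates 1 and 2 alone without the block and 28 with the block and no fold threshold. Except for the unblocked DESeq2 test (0 factors), each of these called 1 factor, *Pax4*, with log2 fold changes from 0.80 to 0.89. For replicate 3, dropping the fold threshold moved the calls from 3893 to 8592 genes and from 12 to 25 factors. Leaving out a library gave from 3648 to 4082 genes and from 11 to 12 factors, and limma on log2(FPKM + 1) gave 2835 genes and 10 factors, losing *Rfx3* (-0.56) and *Foxa1* (-0.26). Without *Thada*-activated replicate 2, *Irx2* was called higher (0.59), and without *Thada*-activated replicate 3, *Myt1l* was called lower (-0.65). The block changed no call of a factor other than that of *Pax4*.

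Estimates near 0 changed sign between conditions. With library sizes that left out the top 20 genes, *Rfx6* was at 0.0073, and by limma on log2(FPKM + 1) and log2(FPKM + 0.1) at 0.015 and 0.015. In the blocked fit, *Rfx6* was at 0.056 without pair 1 and 0.031 without pair 2. Without pair 2, *Mafa* was at -0.031, *Ldb1* at -0.030, *Insm1* at -9.9e-05, *Irx2* at -0.14, *Foxa1* at -0.18 and *Foxa2* at -0.051. *Hnf4a* was at -0.030 without pair 3 in the blocked fit and at -0.030 from replicates 1 and 2 alone. With each library left out and no block, the log2 fold changes ranged over *Foxa1* -0.054 to 0.42, *Foxa2* -0.056 to 0.14, *Foxo1* -0.020 to 0.10, *Glis3* -0.29 to 0.12, *Insm1* -0.31 to 0.46, *Irx2* -0.13 to 0.23, *Ldb1* -0.029 to 0.054, *Mafa* -0.024 to 0.36, *Mafg* -0.22 to 0.18, *Myt1* -0.090 to 0.34, *Myt1l* -0.032 to 0.26, *Neurod1* -0.058 to 0.19, *Nkx2-2* -0.022 to 0.46, *Nr3c1* -0.0087 to 0.11, *Onecut2* -0.14 to 0.17, *Pax6* -0.0033 to 0.19, *Pdx1* -0.22 to 0.32, *Prox1* -0.016 to 0.23, *Rfx3* -0.16 to 0.29, *Rfx6* -0.095 to 0.042 and *St18* -0.21 to 0.33. Without a change of sign, they ranged over *Hnf4a* 0.0027 to 0.22, *Hnf4g* 0.16 to 0.51, *Mnx1* 0.084 to 0.32, *Nkx6-1* 0.049 to 0.28, *Rxra* 0.024 to 0.15, *Sox4* 0.081 to 0.29, *Esrrg* 0.10 to 0.23 and *Isl1* 0.12 to 0.20. The replicate 3 differences with a change of sign ranged over *Esrrg* -0.25 to 0.014, *Hnf4a* -0.46 to 0.098, *Isl1* -0.019 to 0.16 and *Rxra* -0.23 to 0.040. No value of these was called, and the cause was not tested. All other estimates of factors kept their direction in the alternatives run.

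The 4 factors at the floor and *Foxa1* had few counts, and whether this comes from depth or from read assignment was not tested. The sample labels do not say whether the 6 libraries are separate cultures. The block rests on 3 pairs, and replicates 1 and 2 are close to each other.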

Other observations

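Genes of progenitor cells and genes that mature β-cells normally keep low were examined as a separate list of 8, of which *Neurog3* was not analysed here and 5 were tested. *Npy*, *Ldha* and *Hk1* had the highest FPKM. Between the conditions, 0 of the 5 were called by the edgeR quasi-likelihood test with or without the replicate block, and 0 had an unadjusted p under 0.05 in either fit. In replicate 3, *Ldha*, the lactate dehydrogenase gene that β-cells normally keep low, was called lower, with 14402, 15505 and 2573 counts in control replicates 1, 2 and 3 and 13733, 13204 and 3054 counts in *Thada*-activated replicates 1, 2 and 3. Its log2 difference was -2.35 (SE 0.09, adjusted p = 3.9e-10 by edgeR). *Rest*, a repressor of neuronal and endocrine genes, was called higher (1.26, SE 0.27, adjusted p = 0.000832 by edgeR), with 44 and 35 counts in the replicate 3 libraries and from 12 to 21 in the others. *Aldh1a3*, a marker of dedifferentiated β-cells, had at most 4 counts in any library.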
